A study of Cucumis melo with 4 samples.

Results

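In melon (Cucumis melo), the NAC transcription factor CmNOR had 129 listed binding peaks at 109 genes whose Gene Ontology (GO) names mark their products as transcription factors or sequence-specific DNA-binding proteins. The members were taken by annotation and not by any measured value. A gene of the list entered if its GO names included "DNA-binding transcription factor activity" or "sequence-specific DNA binding", and left if any of its GO names referred to auxin, abscisic acid, gibberellin, cytokinin, jasmonate, brassinosteroid or ethylene. The 109 genes are 3.20% of the 3406 listed genes with a GO name, and 4510 genes and 5493 peaks are listed in all. Every listed gene has an assigned peak, so the share of such genes in the whole genome is not known here. The peaks come from DAP-seq, in which purified genomic DNA fragments are offered to a tagged protein and the retained fragments are sequenced. In 2 libraries the bait was MBP-His-CmNOR, in which CmNOR carries a His tag and maltose-binding protein and which was made in E. coli, and in the other 2, the negative controls, it was the MBP-His tag alone. The labels give no melon cultivar, tissue or age for the genomic DNA. The deposited list combines the libraries and holds no count, enrichment or p-value, so library depth is unknown and no peak can be set against its value in the tag controls. A listed peak shows that naked DNA was retained in the test tube. It does not show whether the gene is expressed or changed by CmNOR in a plant.

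NAC proteins are a plant-specific family of transcription factors that bind DNA through a conserved amino-terminal domain. CmNOR is named after NON-RIPENING, a NAC gene that acts in the ripening of tomato fruit. Transcription factors often stand in chains, in which one factor binds near the gene of another, so genes of this class are a usual place to look for the next step below a regulator.

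Because members were picked by GO name, the names they carry describe the selection and are no separate check of the label. Some form of transcription factor activity was named for 101 of the 109 genes, and the general term for regulation of DNA-templated transcription for 104. The 8 genes without a transcription factor name were members through sequence-specific DNA binding alone. For 1 of them, MELO3C017285.2, the other names are transcription initiation from RNA polymerase II promoters and translation initiation, so its annotation describes an initiation factor and not a gene-specific regulator. Another, MELO3C022955.2, is annotated with AT DNA binding, a chromosomal region, the nucleolus and the mitochondrion. The list gives no family names, so no member is called a NAC, MADS-box, WRKY or other family gene here. In all, 64 members were annotated to the nucleus, 60 to DNA binding, 10 to protein dimerization, 7 to the development of a multicellular organism and 6 to zinc ion binding.

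Every one of the 109 genes can be placed by its peaks. A peak in the authors' promoter class, which holds peaks with an edge at most 3 kb before or after the gene start, was listed for 54 genes. Another 42 had distal intergenic peaks only, and the remaining 13 had neither a promoter-class peak nor distal peaks alone. Those 54 genes are 49.5% of the members (95% exact interval 39.8 to 59.3), and the share over all genes with a GO name was 49.0%. The 42 genes with distal peaks only are 38.5% (29.4 to 48.3), against 36.3% of all genes with a GO name. On both measures the members' share lay near that of the list as a whole. Here and below, intervals describe counting error alone, because nothing in the list is replicated.

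Counted by peak, 58 of the 129 fell in the promoter class, 53 were distal intergenic, 9 were in exons or introns, 8 in the downstream classes and 1 in a 3' UTR. The promoter class thus held 45.0% of the members' peaks (95% exact interval 36.2 to 54.0), against 40.2% of all 5493 peaks. The distal intergenic class held 41.1% (32.5 to 50.1) against 46.7%. Over the peaks of genes with a GO name, the promoter class held 42.7% and the distal class 42.6%, nearer to the members' shares. All of these background values lie within the members' intervals. Exons held 2 peaks (1.55%) and introns 7 (5.43%) of the members' peaks, 9 together, while exons and introns held 9.21% of all listed peaks. Within the promoter class, 23 of the members' peaks were within 1 kb of the gene start, 20 between 1 and 2 kb and 15 between 2 and 3 kb.

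**Figure D1:**
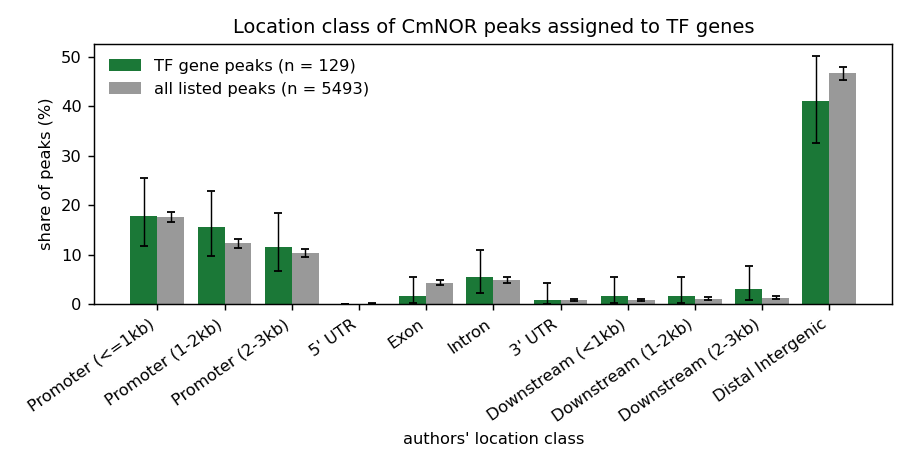
Share of peaks in each of the authors' location classes, in percent, for the 129 peaks assigned to transcription factor (TF) genes (green) and for all 5493 listed peaks (grey). Bars start at 0 and error bars are 95% exact binomial intervals. In each class that holds a TF gene peak the interval of the green bar takes in the top of the grey bar. The distal class holds 41.1% against 46.7%, and 42.6% over the peaks of genes with a GO name, which are not drawn.

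The peaks nearest to gene starts were at genes with no known name in the list, described here by their GO functions. A peak covered the gene start itself in 4 members, 3.67% (95% exact interval 1.01 to 9.13), against 4.37% of all genes with a GO name. In MELO3C026879.2 (chromosome 11, gene at 22579406 to 22582959), annotated to sequence-specific DNA binding, the peak of 402 bp at 22582763 to 22583164 was centred 4.5 bp before the start. MELO3C013923.2 (chromosome 6, gene at 34771073 to 34772644), a nuclear factor with sequence-specific DNA binding, had a peak of 577 bp at 34772323 to 34772899. MELO3C006973.2 (chromosome 6, gene at 7868426 to 7869409), a nuclear DNA-binding factor, had a peak of 456 bp at 7868234 to 7868689 over its start. Its other peak, at 7869542 to 7870038, lay just past the gene's end. In MELO3C034628.2 (chromosome 11) the gene model at 6729197 to 6729366 is only 170 bp long and lies wholly inside its peak of 368 bp. For that gene, a peak over the start cannot be told from a peak over the whole gene.

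The 10 closest of the peaks lying wholly upstream were 47 to 1030 bp before the gene start. The closest belonged to MELO3C002369.2 on chromosome 12, whose GO names join DNA binding, protein dimerization, the MAPK (mitogen-activated protein kinase) cascade and positive regulation of RNA polymerase II transcription. Its peak at 24548273 to 24548775 ended 47 bp from the gene at 24543718 to 24548226. At the nuclear factor gene MELO3C019931.2 on chromosome 3 the peak, 21970287 to 21970721, lay 173 bp upstream. Sequence-specific factor genes followed, MELO3C020963.2 on chromosome 11 at 219 bp and MELO3C015468.2 on chromosome 2, also annotated to zinc ion binding, at 223 bp. The peak of MELO3C025656.2 on chromosome 7, annotated to transcription and sequence-specific DNA binding, lay 395 bp upstream.

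The others of these closest peaks lay at 636 bp for MELO3C022983.2 (chromosome 5, nuclear DNA-binding factor), 850 bp for MELO3C006177.2 (chromosome 6) and 899 bp for MELO3C023051.2 (chromosome 5). MELO3C006177.2 is annotated only to transcription factor activity and regulation of transcription, and MELO3C023051.2 to cell differentiation and to recruiting regulators of RNA polymerase II. MELO3C015776.2 on chromosome 1, a sequence-specific factor gene, had a peak 910 bp upstream. The last, 1030 bp upstream, belonged to MELO3C012426.2 on chromosome 10, which is annotated to zinc ion binding and positive regulation of transcription.

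A minority of members had a peak in the 2 kb before the gene start. A peak centre lay there in 14 of the 109 genes, 12.8% (95% exact interval 7.20 to 20.6), against 17.8% of all genes with a GO name, a value inside the members' interval. Among the 203 genes that carry the broader GO name "DNA binding" without being members, the share was 44 genes or 21.7% (16.2 to 28.0). This 21.7% lies just above the members' interval, and the members' 12.8% lies below the interval of the 203 genes. Only the 17.8% lies inside the members' interval. No test was made, and the intervals describe counting error alone. Of the 58 promoter-class peaks of the members, 22 were centred upstream of the gene, 25 inside it and 11 past its end. The upstream share was 37.9% (25.5 to 51.6), against 50.6% over all promoter-class peaks and 49.8% over those of genes with a GO name. The share past the end was 19.0% (9.87 to 31.4), against 13.3% and 9.86%. These differences were not tested. In 32 of the 54 genes with a promoter-class peak, no such peak was centred upstream. The same share was not computed over the list, so this count is not known to be particular to the members.

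The 25 promoter-class peaks inside genes belonged to 23 members, and 10 of them were centred 1 to 2 kb into the gene. MELO3C026413.2 on chromosome 10, a nuclear sequence-specific factor gene, had 2 of them, 1339 and 2190 bp from its start in a gene of 4049 bp. MELO3C010195.2 on chromosome 2, annotated to development, had peaks 608 and 1430 bp inside a gene of 3896 bp. MELO3C011096.2 on chromosome 3, a gene of 1140 bp annotated to AT DNA binding, had a peak of 694 bp that began 65 bp from the start and so covered most of the gene. The 11 promoter-class peaks past gene ends belonged to 10 genes of 171 to 2654 bp. The promoter class reaches past such short genes, so the class name does not place these peaks before the gene.

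**Figure D2:**
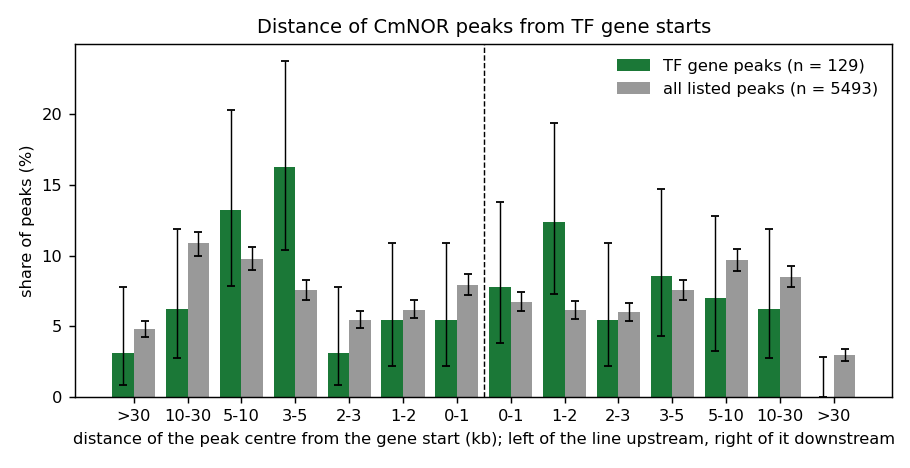
Share of peaks, in percent, by the distance of the peak centre from the assigned gene start, in kb, for TF genes (green, n = 129) and all listed peaks (grey, n = 5493). Left of the dashed line is upstream and right of it downstream, and error bars are 95% exact binomial intervals; 16.3% of the green peaks are 3 to 5 kb upstream against 7.54% of the grey ones.

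Of the distance ranges in the plot of peak centres, which are unequal in length, the one 3 to 5 kb upstream held the most of the members' peaks. This range held 21 peaks at 21 genes, 16.3% of the 129 (95% exact interval 10.4 to 23.8), against 7.54% of all peaks and 7.23% of the peaks of genes with a GO name. Among the members' peaks of at least the list's median width, the range held 8 of 69, or 11.6% (5.14 to 21.6). The share over all peaks of that width was not computed. The range was singled out after the values were seen, and no test was made. By the authors' classes 15 of the 21 were distal intergenic, 4 still counted as promoter because their edge lay within 3 kb, and 2 fell in the downstream or 3' UTR class. Closest among the distal ones were the peaks of MELO3C015633.2 (3041 bp upstream), MELO3C016337.2 (3050 bp) and the development gene MELO3C023484.2 (3052 bp). MELO3C006693.2 on chromosome 6, the member annotated to phosphorelay signal transduction, had its peak 4149 bp upstream. The zinc ion binding gene MELO3C003335.2 on chromosome 4 had one 3691 bp upstream.

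On the other side of the start, 16 of the 129 peaks were centred 1 to 2 kb downstream, 12.4% (95% exact interval 7.26 to 19.4). The share was 6.14% over all peaks and 6.67% over the peaks of genes with a GO name. This range too was singled out after the values were seen, and no test was made. Peak edges just inside and just outside the authors' limit of 3 kb were about as frequent, with 8 of the 129 edges in the last 500 bp inside the limit and 11 in the first 500 bp beyond it. A change of that limit would therefore move several members between the promoter and distal classes. The median distance from peak edge to gene start was 3324 bp over the members' peaks (95% interval of the median 2796 to 3976), against 4207 bp over all peaks and 3797 bp over peaks of genes with a GO name. The last of these lies inside the members' interval.

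Distal peaks of the members were mostly on the upstream side. Of the 53, 43 were upstream, 81.1% (95% exact interval 68.0 to 90.6), and 10 past the gene's end. Over all distal peaks of the list, 1616 of 2563 or 63.1% were upstream. This comparison was made after the values were seen, with no test. The median distance of the 53 to the gene start was 7603 bp, against 10504 bp for all 2563 distal peaks. An edge within 10 kb was found for 36 of them (67.9%), against 47.8%. For the distal peaks of genes with a GO name, the upstream share, this median and this share were not computed. Over 30 kb away lay 4 of the 53, all of 1 gene, MELO3C016413.2. By peak centre, 3.10% of the members' 129 peaks lay over 30 kb upstream and 0% over 30 kb downstream. The shares over all listed peaks were 4.79% and 2.93%. For distal peaks the assignment rests on position alone, so another gene could be the one concerned.

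Most members had 1 peak, and 16 had several. The share with 2 or more was 14.7% (95% exact interval 8.63 to 22.7), against 14.8% of all genes with a GO name, so this share lay near that of the list. Of the 16 genes, 13 had 2 peaks, 2 had 3 and 1 had 4, for 36 peaks in all. The smallest gap was at most 1 kb in 5 genes, and the median of the smallest gaps was 4022 bp. In 7 genes the peaks lay on both sides, upstream and past the end. In 3 genes they were all upstream, in 2 all inside, in 2 all past the end, and the rest combined an inside peak with one past the end. Gaps and sides were not counted over the other listed genes with several peaks.

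MELO3C016413.2 (chromosome 6, gene at 30411141 to 30415512), annotated to nuclear DNA binding and development, had the most peaks of any member. Its 4 peaks lay 78658, 144106, 196933 and 235163 bp upstream, with gaps of 37636 to 65035 bp between neighbours. None of them is near the gene. The cell differentiation gene MELO3C023051.2 had, besides its peak 899 bp upstream, peaks 13507 and 18945 bp downstream. Both of these were placed by the authors in intron 13 of 14 of another gene, MELO3C023052.2. MELO3C023514.2 on chromosome 1, with DNA binding and sequence-specific DNA binding, had a peak of 513 bp over its far end and others 4194 and 8522 bp upstream.

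**Figure D3:**
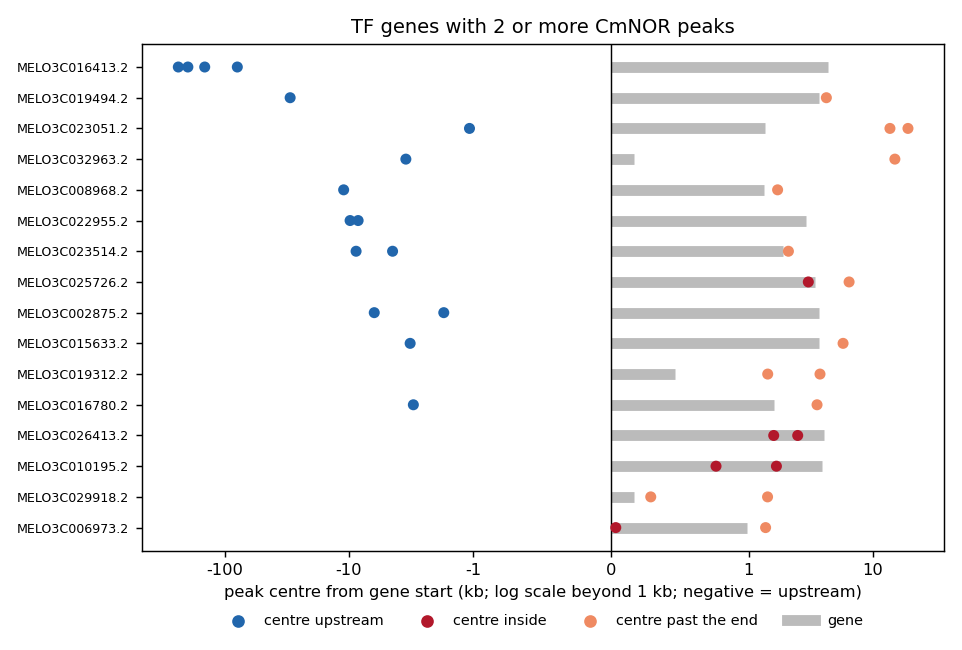
Positions of peak centres relative to the gene start, in kb (log scale beyond 1 kb on either side, negative upstream), for the 16 TF genes with 2 or more peaks. Each row is a gene, the grey bar is the gene body from its start, and points are peaks coloured by side; the 4 peaks of MELO3C016413.2 are all over 30 kb upstream, and 7 genes carry peaks both upstream and past the end.

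Of the 5 genes with peaks at most 1 kb apart, 4 had them inside the gene or in the promoter class past its end, and 1 had them in distal sequence. MELO3C026413.2 held the smallest gap, 357 bp between its 2 inside peaks, followed by MELO3C010195.2 with 513 bp. The gap was 684 bp at MELO3C029918.2, a sequence-specific factor gene of 171 bp on chromosome 3 whose peaks began 30 and 1233 bp past its start. It was 852 bp at MELO3C006973.2 and 938 bp at MELO3C022955.2, whose peaks lay 8142 and 9591 bp upstream. With peaks of 1 gene within 1 kb counted once, 11 of the 109 genes had 2 or more. The same count was not made over the list.

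When the members were grouped by their remaining GO names, the groups differed in how near the gene start their peaks lay. Genes with exactly the names transcription factor activity, sequence-specific DNA binding and regulation of transcription formed a sequence-specific set of 32. Of these, 20 (62.5%, 95% exact interval 43.7 to 78.9) had a promoter-class peak and 5 a peak centre within 2 kb upstream. A nuclear set of 25 had exactly the names DNA binding, transcription factor activity, nucleus, transcription and regulation of transcription. In that set 9 (36.0%, 18.0 to 57.5) had a promoter-class peak and 2 a peak centre within 2 kb upstream. These intervals overlap. The sets were formed after the data were seen, and the difference was not tested. The nuclear set supplied 9 of the 21 peaks 3 to 5 kb upstream, and the sequence-specific set 4. The gene bodies also differed in length, with medians of 2762 bp in the sequence-specific set and 1102 bp in the nuclear set, and the part of gene length in the difference was not tested.

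By the rule's own terms the order was similar. Among the 47 genes that carry both rule terms, 29 (61.7%, 46.4 to 75.5) had a promoter-class peak. Among the 52 with transcription factor activity alone it was 19 (36.5%, 23.6 to 51.0), and among the 10 with sequence-specific DNA binding alone 6 (60.0%, 26.2 to 87.8). The background of 49.0% lies inside all 3 of these intervals. The sets of the previous paragraph are nested in these groups and are not separate evidence.

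A set of 9 genes shared a longer combination of GO names, namely the MAPK cascade, protein dimerization, RNA polymerase II regulatory region binding and positive regulation of transcription by RNA polymerase II. Each of the 9 had 1 peak, and only 2 were in the promoter class. MELO3C002369.2, described above, had its peak 47 bp upstream. MELO3C011410.2 on chromosome 3, also annotated to floral meristem identity and to the development of sepals, petals, stamens and carpels, had a peak of 578 bp at 26210159 to 26210736, 2161 bp inside the gene. MELO3C003502.2 on chromosome 4 had its peak in intron 2 of 8, 4231 bp from the start of a gene of 23306 bp. Upstream peaks lay at 5574 bp for MELO3C002691.2, 6177 bp for MELO3C031794.2, 8283 bp for MELO3C026300.2 and 8350 bp for MELO3C019192.2. Peaks past the gene's end lay 8087 bp from the start of MELO3C019694.2 and 23167 bp from that of MELO3C026299.2. The 6 genes with distal peaks only are 66.7% of the set (29.9 to 92.5), an interval that takes in the 36.3% of all genes with a GO name.

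**Figure D4:**
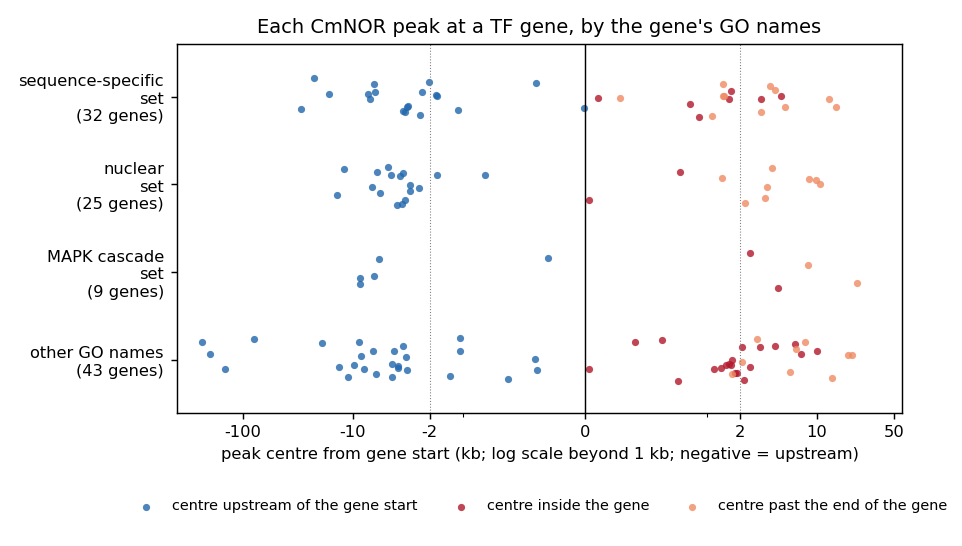
Each of the 129 peaks by the position of its centre relative to the gene start, in kb (log scale beyond 1 kb on either side, negative upstream, dotted lines at 2 kb), in rows for the sets of genes that share GO names. Points are coloured by side and spread vertically at random within a row; in the MAPK cascade set 1 of the 9 peaks is upstream within 2 kb, and the nuclear set has a group of peaks a little over 3 kb upstream.

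No member grouped by names of development, flowering or an organ had a peak centred in the 2 kb before the gene start. The name cell differentiation was not part of this group. Of the 2 members with that name, MELO3C023051.2 had a peak 899 bp upstream and MELO3C005569.2 one 1113 bp inside the gene. Of 10 genes annotated to development, flowering or an organ, 0 had an upstream peak centre in the nearest 2 kb (95% exact interval of the share 0 to 30.8%), and 5 had a promoter-class peak. The 17.8% of all genes with a GO name lies inside that interval, so at this number of genes a difference was not detectable. MELO3C010195.2 and MELO3C011410.2, both with inside peaks, are among them. MELO3C024686.2 on chromosome 2, also annotated to metal ion binding, had a peak of 598 bp 1518 bp inside the gene. MELO3C018124.2 on chromosome 4 carries the names endosperm development, genetic imprinting, histone methylation and a chromatin silencing complex, and had its peak 7679 bp upstream. MELO3C015067.2 on chromosome 2, annotated to root development, had one 20797 bp downstream.

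Defence, light and cell cycle names were each carried by 1 member, and the response to cold by MELO3C018124.2, described above. MELO3C019321.2 on chromosome 11 is annotated to red and far-red light signalling, long-day flowering, heat, cold acclimation, water deprivation and defence against bacteria, and had a peak of 318 bp 3337 bp upstream. At the cell cycle gene MELO3C019031.2 on chromosome 7 the peak lay 6293 bp upstream, and the authors placed it in intron 13 of 13 of the gene MELO3C019030.2. Of the 9 peaks of members in exons or introns, 3 were in another gene than the one assigned. Of the 6 zinc ion binding genes, 4 had a promoter-class peak and 2 a peak centre within 2 kb upstream. They included MELO3C007831.2 on chromosome 8, whose peak lay 984 bp downstream of the start. The 3 lipid binding genes had peaks 1931 bp inside MELO3C003433.2, 6073 bp inside MELO3C012973.2 and 5988 bp upstream of MELO3C007377.2.

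Peaks at these genes were about as wide as those of the list. The narrowest was 299 bp wide, the widest 1711 bp, and the median 428 bp (95% interval of the median 408 to 440), against 421 bp over all peaks. Widths of at least 650 bp were found for 9 of the 129 (6.98%) and for 290 of all peaks (5.28%). In the 14 peaks centred within 2 kb upstream the median was 398 bp (346 to 467), and in the 53 distal ones 421 bp (396 to 434). Width is not a measure of how much DNA was retained.

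The widest peak, 1711 bp on chromosome 8, belonged to MELO3C008968.2, annotated to transcription and sequence-specific DNA binding. The next widest was 811 bp. That second peak, 5331 bp from the start of the nuclear factor gene MELO3C015633.2 on chromosome 2, lay past the gene's end. Then followed MELO3C011671.2 on chromosome 3 (785 bp wide, 2122 bp upstream) and MELO3C002624.2 on chromosome 12 (778 bp wide, 2987 bp upstream), both nuclear DNA-binding factor genes. MELO3C011096.2 (694 bp), MELO3C019312.2 on chromosome 11 (680 bp) and MELO3C016413.2 (676 bp) came next. Last among the 10 genes with the widest peaks were MELO3C007560.2 on chromosome 8 (667 bp, 13028 bp upstream), MELO3C012485.2 on chromosome 10 (652 bp, 3856 bp upstream) and MELO3C024686.2 (598 bp).

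All 12 numbered chromosomes carried members, from 5 peaks on chromosome 12 to 19 on chromosome 6, and 1 more was on chr0. The members' share of each chromosome's peaks ran from 1.24% on chromosome 12 to 3.65% on chromosome 6. In the outer 20% of the numbered chromosomes, measured up to the last listed peak, lay 46 of 128 members' peaks, 35.9% (95% exact interval 27.7 to 44.9), against 24.9% of all peaks. The density of genes of this class along the chromosomes was not measured, so its part in that difference was not tested. Within 100 kb of each other lay 2 pairs of member genes. The same count was not made for other genes of the list, so it is not known whether this is few. MELO3C016337.2 and MELO3C016338.2, both sequence-specific factor genes on the same strand of chromosome 7, lay 7040 bp apart with peaks 2111 bp from each other. One peak was upstream of MELO3C016337.2 and the other past the end of MELO3C016338.2, so both lay in the stretch between the genes. MELO3C022983.2 and MELO3C022985.2 on chromosome 5 lay 48849 bp apart.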

How the data were processed

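Per the labels, 2 DAP-seq libraries used MBP-His-CmNOR and 2 the MBP-His tag as bait. All 4 carry the same source name, so groups were taken from the titles. The submitters' processing notes name the peak caller MACS2 and deepTools. For their versions and thresholds, the aligner, the genome build, the annotation and the way libraries were combined, the sources used here say nothing, and these choices decide which weak sites are listed. The deposited table gives positions, widths and signed distances in bp, so nothing was normalized. Recomputing widths and distances from the coordinates gave the deposited values in all 5493 rows.

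The members and the GO-name groups were chosen with earlier results of these data known. The groups by exact combinations of GO names, the distance ranges, the chromosome ends, the width limit and the neighbouring genes were chosen after the values were seen. Named genes are those with a peak over the start, the 10 nearest upstream, the 10 widest, those with 3 or more peaks and up to 3 nearest per GO-name group. Others named were chosen after their values were seen. The RefSeq table of melon genes (assembly USDA_Cmelo_AY_1.0) matched 0 of the 4510 identifiers. Genes therefore go by identifier and GO name, and no sequence is shown. Shares carry 95% exact Clopper-Pearson intervals and medians distribution-free binomial ones. No hypothesis test was made, because no value belongs to a library. The placing of peaks was tested on simulated data. Python 3.11.15, pandas 2.3.3, scipy 1.17.1, numpy 2.4.6 and matplotlib 3.10.9 were used.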

Additional observations from a re-analysis of the deposited data

How the results depend on the processing

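Of 29 alternative settings over 5 results, 27 gave a value inside the 95% interval of the value reported. This count is no measure of robustness. Leaving out chr0 and keeping the hormone-annotated gene each changed the members by 1 peak, so for all 5 results they could hardly leave the interval. With a promoter of 1 kb in place of 2 kb, the share of members with an upstream peak centre was 6.42%, and with 3 kb or with any overlap of at least 1 bp it was 16.5%. Over all genes with a GO name the same settings gave 9.72%, 24.3% and 21.5%. The members' share was below the list's in each, but the settings count largely the same peaks and are not separate evidence. Each list value lay inside the members' 95% exact interval at that setting (2.62 to 12.8, 10.1 to 24.8 and 10.1 to 24.8). With members taken by sequence-specific DNA binding only, the median width was 403 bp in place of 428 bp, and the cause was not tested. In peaks of at least the median width the upstream share was 8.20%, or 5 of 61 genes (2.72 to 18.1). The share over the list at that width was not computed. No paired analysis was possible because the list holds no value per library, and leaving out a library was not possible for the same reason. Depth, enrichment and agreement between repeats are unknown, which limits every statement to where peaks were listed.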

Other observations

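Several members are very short gene models, and the difference in frequency given here was not tested. Models of at most 200 bp made up 6 of the 109 members, 5.50% (95% exact interval 2.05 to 11.6), against 45 of the 3406 genes with a GO name (1.32%) and 226 of all 4510 genes (5.01%). Of these 6 genes, 4 are exactly 171 bp long (MELO3C028891.2, MELO3C029787.2, MELO3C029918.2 and MELO3C032963.2), a length shared by 13 genes of the whole list. All 6 carry the same names, transcription factor activity, sequence-specific DNA binding and regulation of transcription. For models this short, the distance to the gene start and to the gene's end are nearly the same.

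The rule dropped 1 gene for a hormone name. MELO3C016121.2 on chromosome 7, a transcription factor gene annotated to brassinosteroid signalling, had a peak of 727 bp 2276 bp upstream, at 20829008 to 20829734.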
